A study of Mus musculus with 24 samples.

Results

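Of 48820 entries in each of 4 mouse count tables, 65 are genes of the axon guidance families, and these were followed in liver endothelial cells (ECs), liver macrophages and whole liver. They were chosen by a rule on gene symbols and comprise 20 semaphorins (classes 3 to 7), 9 plexins, 8 ephrins, 14 Eph receptors, 3 netrins, 4 Unc5 receptors, 3 Slits and 4 Robo receptors. The C57BL/6 mice lacked *Gdf2* and *Bmp10*, which encode the ligands BMP9 and BMP10, in hepatic stellate cells (HSCs), or lacked *Smad4*, the common partner of the receptor-activated Smads, in hematopoietic cells. Macrophages sorted as CD45+Ly6C-F4/80+CD64+ cells came from BMP9/10 control and Bmp9/10-HSC-KO mice (Gdf2 fl/fl Bmp10 fl/fl with Lrat-Cre, which acts in HSCs). In another experiment they came from Smad4FF mice and Smad4FF cKO mice (Smad4 fl/fl with Vav1-Cre, which acts in blood cells of all lineages and not in macrophages alone). ECs sorted as CD45-CD31+ cells came from control and Bmp9/10-HSC-KO mice. The sorted cells were from mice aged 8 to 10 weeks, and livers were from control and Bmp9/10-HSC-KO mice aged 12 weeks. Each of the 8 groups had 3 libraries, and by the labels 3 mice gave both a macrophage and an EC library.

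Semaphorins are secreted or membrane-bound cues that signal through plexins, with neuropilins as co-receptors for the class 3 members. Ephrins and Eph receptors both sit in the membrane and signal in both directions at cell contacts, and ephrin-B2 on arteries facing EphB4 on veins is the textbook pair that separates the vessel types. Netrins bind Unc5 receptors, Dcc and neogenin, and Slits bind Robo receptors, of which Robo4 is endothelial. In ECs these systems steer sprouting, barrier tightness and arteriovenous identity, while in macrophages and lymphocytes several semaphorins and plexins act in adhesion, migration and the contact with T cells.

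The libraries held 60911527 to 110879155 counts. *Gdf2* was at 9.38 to 22.5 CPM (counts relative to the library total, scaled with TMM factors) in control livers and 2.12 to 3.85 CPM in Bmp9/10-HSC-KO livers, and *Bmp10* at 1.99 to 3.28 CPM and 0.0938 to 0.262 CPM. *Smad4* was at 35.3 to 42.8 CPM in Smad4FF macrophages and 12.6 to 17.2 CPM in Smad4FF cKO macrophages. The sorted ECs carried 12 of 12 pan-endothelial markers, with summed levels of 18930 to 19768 CPM in control and 12106 to 14135 CPM in Bmp9/10-HSC-KO libraries. The sorted macrophages carried 6 of 6 general macrophage markers in every group, but the summed level of 7 Kupffer cell markers (such as *Clec4f* and *Vsig4*) was 29925 to 31636 CPM in BMP9/10 control and 173 to 437 CPM in Bmp9/10-HSC-KO libraries, and 25612 to 32399 CPM in Smad4FF and 1063 to 1091 CPM in Smad4FF cKO libraries. By the median over the endothelial markers, the EC share was 0.105, 1.68 and 1.20% in the BMP9/10 control macrophage libraries, 0.0699, 0.0731 and 0.361% in the Bmp9/10-HSC-KO libraries, 9.75, 2.73 and 8.96% in the Smad4FF libraries and 7.29 to 9.72% in the Smad4FF cKO libraries. BMP9/10 control replicate 1 and Smad4FF replicate 2 were thus the lowest of their groups. Among livers, Bmp9/10-HSC-KO replicate 3 stood apart by the X-linked transcript *Xist*, at 0.167 CPM against 303 to 708 CPM in the other 5. In macrophages, *Xist* was at 0, 0 and 21.1 CPM in BMP9/10 control and 0, 75.5 and 87.2 CPM in Bmp9/10-HSC-KO libraries. In ECs it was at 21.5, 0 and 0 CPM in control and 25.4, 0 and 42.7 CPM in Bmp9/10-HSC-KO libraries. These groups were thus not matched for *Xist*.

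Of the 65 genes, 56 passed the filter on low counts in at least 1 comparison. The 9 that passed in none were *Epha5*, *Epha6*, *Epha8*, *Epha10*, *Ntn5*, *Sema3e*, *Slit2*, *Unc5c* and *Unc5d*, and of these *Epha6* and *Ntn5* had at most 3 counts in every library, which was taken as not detectable. A differentially expressed gene (DEG) had a Benjamini-Hochberg (BH) adjusted p below 0.05 over all genes tested and an absolute log2 fold change above 1 in edgeR's quasi-likelihood test. In at least 1 of the 4 comparisons of mutants with controls, 23 guidance genes were DEGs.

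**Figure D1:**
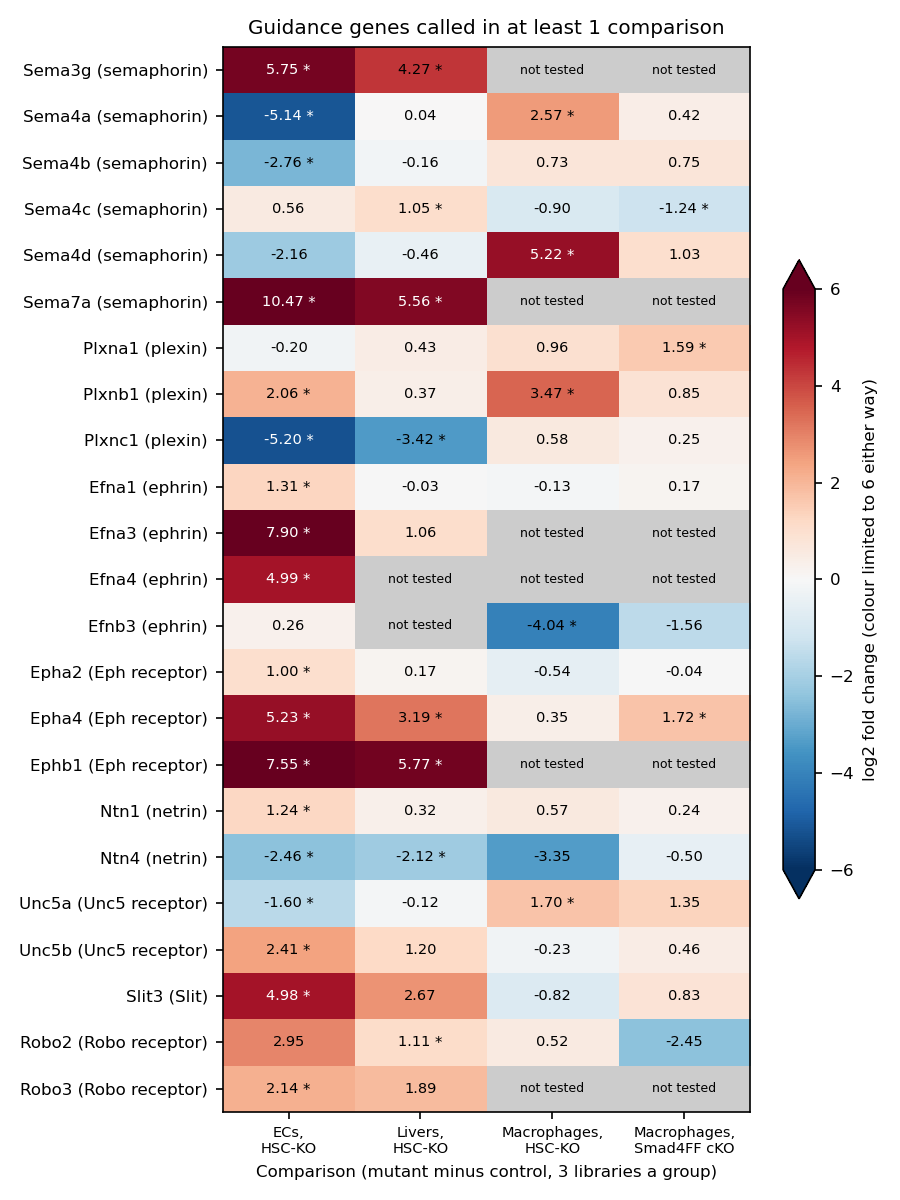
log2 fold changes (mutant minus control, colour and printed value) of the 23 guidance genes called in at least 1 of the 4 comparisons, with an asterisk for a DEG and grey for a gene not tested. ECs held 18 of the calls, livers 8, Bmp9/10-HSC-KO macrophages 5 and Smad4FF cKO macrophages 3.

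Of the 6 guidance genes that were DEGs in both ECs and livers of Bmp9/10-HSC-KO mice, *Sema7a*, *Sema3g*, *Ephb1* and *Epha4* were higher, and *Plxnc1* and *Ntn4* lower. The 250 bases before the RefSeq transcript start (GRCm38.p6) are shown for 5 of them, because these genes moved together in both tables, while that of *Ntn4* lies within its GENCODE transcript and is not shown. Written 5′ to 3′ on the strand of the gene, they lie at chr9:57939862-57940111 (plus strand), chr14:31217623-31217872 (plus strand), chr9:102354694-102354943 (minus strand), chr1:77515089-77515338 (minus strand) and chr10:94944846-94945095 (minus strand). Capitals mark matches on either strand to 4 letter strings, GGCGCC and GTCTAG (both found in Smad-binding elements), CAGCTG (an E-box) and TGGGAA (the core bound by RBPJ, the Notch effector), and no matches overlapped.
Sema7a: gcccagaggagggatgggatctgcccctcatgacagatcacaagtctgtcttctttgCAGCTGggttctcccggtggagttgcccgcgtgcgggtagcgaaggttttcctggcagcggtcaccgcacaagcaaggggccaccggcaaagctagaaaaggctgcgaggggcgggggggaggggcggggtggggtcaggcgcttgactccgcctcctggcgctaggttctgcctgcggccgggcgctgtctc
Sema3g: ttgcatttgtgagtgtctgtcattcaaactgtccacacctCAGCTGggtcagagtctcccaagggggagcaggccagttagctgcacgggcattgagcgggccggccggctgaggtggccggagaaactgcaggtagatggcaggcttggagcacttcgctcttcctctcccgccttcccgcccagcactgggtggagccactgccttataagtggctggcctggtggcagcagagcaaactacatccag
Ephb1: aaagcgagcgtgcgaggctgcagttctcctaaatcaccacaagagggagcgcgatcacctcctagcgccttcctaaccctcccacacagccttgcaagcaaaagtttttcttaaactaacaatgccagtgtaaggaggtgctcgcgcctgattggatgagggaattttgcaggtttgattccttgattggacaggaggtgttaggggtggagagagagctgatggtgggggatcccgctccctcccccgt
Epha4: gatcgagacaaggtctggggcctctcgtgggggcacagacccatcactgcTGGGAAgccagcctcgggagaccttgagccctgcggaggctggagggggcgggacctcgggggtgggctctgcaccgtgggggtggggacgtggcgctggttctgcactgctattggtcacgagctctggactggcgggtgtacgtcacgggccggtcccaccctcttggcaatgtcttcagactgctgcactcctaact
Plxnc1: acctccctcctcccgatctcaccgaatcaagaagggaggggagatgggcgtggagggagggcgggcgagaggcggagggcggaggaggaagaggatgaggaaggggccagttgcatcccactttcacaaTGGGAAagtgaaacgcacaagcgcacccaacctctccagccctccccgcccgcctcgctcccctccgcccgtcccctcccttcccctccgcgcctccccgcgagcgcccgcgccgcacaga
*Sema7a* and *Sema3g* each held 1 CAGCTG, 193 and 210 bases before the start. *Epha4* and *Plxnc1* each held 1 TGGGAA, 200 and 121 bases before it, the former in a gene that rose and the latter in a gene that fell. *Ephb1* held none of the 4 strings. Over the 72 RefSeq promoters of 56 guidance genes, 16.7% held CAGCTG, 18.1% TGGGAA, 20.8% GGCGCC and 6.9% GTCTAG, against 13.0, 21.6, 9.6 and 7.1% of all 32851 promoters. These are letters in a window and not mapped binding sites.

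The comparison of ECs asked which of these cues and receptors differ when HSCs lack the BMP9 and BMP10 genes. In ECs from Bmp9/10-HSC-KO mice, *Sema7a*, *Sema3g*, *Ephb1*, *Epha4*, *Slit3* and *Robo3* rose from at most 1.16 CPM in every control library, *Unc5b*, *Ntn1* and *Efna1* rose from higher levels, and *Plxnc1*, *Sema4b*, *Ntn4*, *Sema4a* and *Unc5a* fell. In all, 18 of the 65 genes were DEGs (27.7%, or 36.7% of the 49 tested), 13 higher and 5 lower, where 13.7% of all genes tested were DEGs (7.68% higher and 6.01% lower). The median log2 fold change was 0.47 over the 49 guidance genes tested and 0.00 over all genes tested. By family, the DEGs were 4 of 20 semaphorins, 2 of 9 plexins, 3 of 8 ephrins, 3 of 14 Eph receptors, 2 of 3 netrins, 2 of 4 Unc5 receptors, 1 of 3 Slits and 1 of 4 Robo receptors, and the called ephrins and Eph receptors were all higher. Of 9 genes listed for arterial and venous guidance, 5 were DEGs, with *Sema3g*, *Unc5b*, *Efna1* and *Epha4* higher and *Ntn4* lower. In these bulk libraries, fewer cells of an EC type and less RNA per cell cannot be told apart. The summed level of 8 arterial markers was 671 to 973 CPM in control and 337 to 536 CPM in Bmp9/10-HSC-KO ECs. That of 5 venous markers was 1338 to 1407 CPM and 2529 to 3758 CPM. All 13 were detected in both groups, and their part in the guidance gene results was not tested. The arterial sum was thus lower, whereas the paper reports large-artery genes as upregulated in these ECs. A sum of CPM follows its most abundant members, so these sums do not show whether arterial or venous identity changed. In whole livers the arterial sum was 23.9 to 29.97 CPM in controls and 27.9 to 48.2 CPM in Bmp9/10-HSC-KO mice, with overlapping ranges. General macrophage markers summed to 220 to 325 CPM in control and 65.1 to 107 CPM in Bmp9/10-HSC-KO ECs, markers of monocytes and dendritic cells (2 of 6 detected in both groups) to 15.1 to 22.7 CPM and 73.6 to 88.3 CPM, and 4 of 4 neutrophil markers had 0 counts.

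*Sema3g* (chr14:31217860-31230352, GENCODE vM21, plus strand), a secreted class 3 semaphorin known from arterial endothelium, was at 0.464, 0.744 and 0.543 CPM in the control ECs and at 33.7, 34.3 and 26.02 CPM in the Bmp9/10-HSC-KO ECs. The groups were far apart relative to their spread, with means of 0.584 ± 0.144 and 31.3 ± 4.61 CPM (SD, n = 3) and a log2 fold change of 5.75 ± 0.25 (SE, adjusted p = 2.76e-05). *Sema7a* (chr9:57940112-57962865, plus strand), a GPI-anchored semaphorin that binds plexin C1 and integrins, had 0, 0 and 7 counts in the control ECs and 2203, 3975 and 5312 counts in the Bmp9/10-HSC-KO ECs. The latter were 23.4, 55.5 and 65.0 CPM, and the fitted log2 fold change of 10.47 ± 0.87 (adjusted p = 0.000256) depends on the prior count, since the controls were close to 0. While the ligand *Sema7a* came on, its receptor gene *Plxnc1* (chr10:94790866-94944835, minus strand) fell from 780, 849 and 803 CPM to 53.5, 7.77 and 4.65 CPM. *Plxnc1* thus went from a mean of 811 ± 35.2 to 22.0 ± 27.3 CPM, and its log2 fold change was −5.20 ± 0.95 (adjusted p = 0.0081). DESeq2 gave a log2 fold change of −5.19 for *Plxnc1* but no adjusted p. 115 bases of its exons are shared with *Gm48718* on the same strand.

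Of the class 4 semaphorins, transmembrane ligands of B-type plexins, *Sema4b* and *Sema4a* fell in ECs. *Sema4b* was at 101, 109 and 74.1 CPM in controls and 22.8, 11.4 and 7.496 CPM in Bmp9/10-HSC-KO ECs (log2 fold change −2.76 ± 0.40, adjusted p = 0.00312). *Sema4a* went from 3.47, 2.39 and 3.01 CPM to 0.233, 0 and 0 CPM (−5.14 ± 1.20, adjusted p = 0.0215). Neither gene's groups overlapped, though *Sema4a* was a low gene in ECs, and its adjusted p rose to 0.0623 without control replicate 1 and 0.0587 without control replicate 3. Without Bmp9/10-HSC-KO replicate 1, the one mutant with counts, its log2 fold change was −10.78. *Plxnb1*, a receptor for class 4 semaphorins, was also low, at 0.439, 0.388 and 0.326 CPM in controls and 1.05, 1.86 and 1.93 CPM in Bmp9/10-HSC-KO ECs (2.06 ± 0.42, adjusted p = 0.0131). *Plxnb2*, a far more abundant plexin of the same class, was at 99.5, 89.9 and 82.8 CPM and 62.7, 31.0 and 48.2 CPM. Its log2 fold change of −0.94 (adjusted p = 0.0314) fell short of the fold threshold, as did that of *Plxna4* at −0.86 (adjusted p = 0.036). *Plxnd1*, the endothelial receptor of Sema3E, was at 360, 405 and 301 CPM in controls and 318, 234 and 308 CPM in Bmp9/10-HSC-KO ECs. These groups overlapped, and the difference of −0.31 ± 0.18 did not pass (adjusted p = 0.285).

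**Figure D2:**
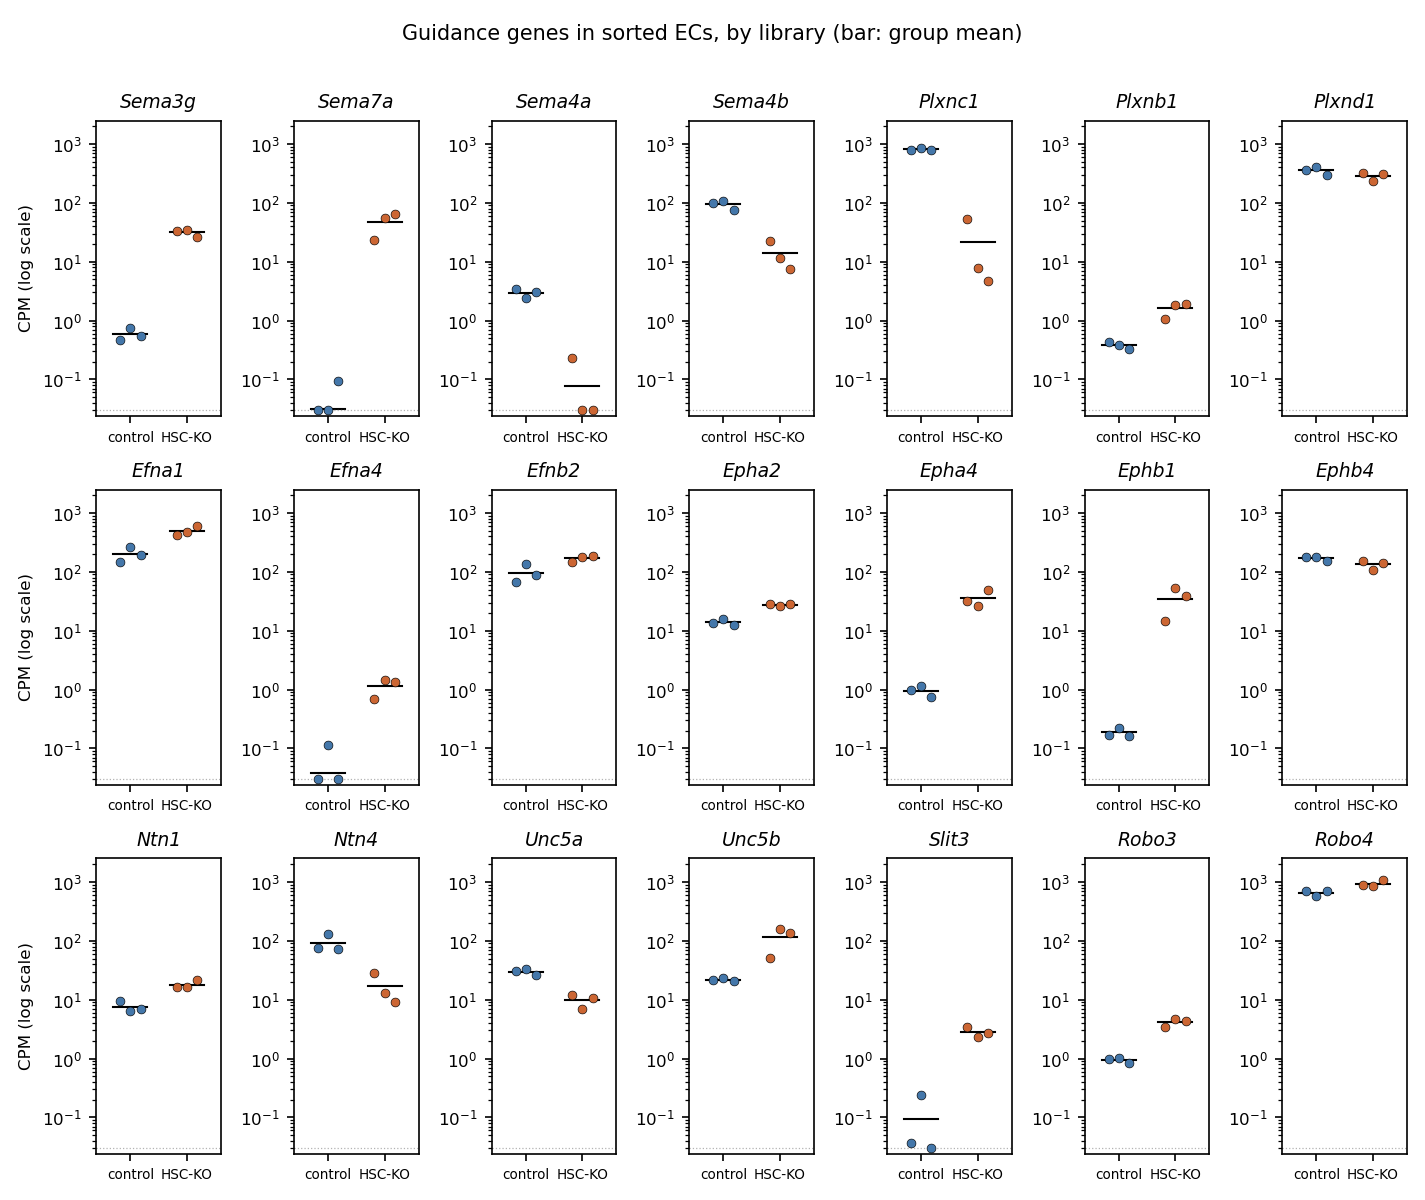
CPM (log scale) of 21 guidance genes in the 3 control (blue) and 3 Bmp9/10-HSC-KO (orange) EC libraries, in replicate order from left to right, with bars at the group means and values under 0.03 CPM drawn at 0.03. The groups do not overlap for the called genes, while *Plxnd1* overlaps and *Ephb4* is close.

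Among ephrins and Eph receptors, 3 A-type ligands and 3 receptors were higher. *Efna1* (chr3:89271733-89281142, minus strand), an ephrin-A that is abundant in endothelium, was at 149, 262 and 193 CPM in controls and 422, 473 and 598 CPM in Bmp9/10-HSC-KO ECs (1.31 ± 0.24, adjusted p = 0.00821). *Efna4*, another A-type ligand, went from 0, 0.113 and 0 CPM to 0.690, 1.44 and 1.35 CPM (4.99 ± 1.25, adjusted p = 0.028), and without control replicate 2 its log2 fold change was 9.54. *Efna3*, which shares 344 bases with the antisense gene *Gm15998*, had 0 counts in all controls and 22, 15 and 58 counts (0.233 to 0.709 CPM) in Bmp9/10-HSC-KO ECs, at least 9.15-fold higher by the 3-count floor (adjusted p = 0.0156). *Gm15998* itself had 0 counts in all controls and 17, 47 and 57 in Bmp9/10-HSC-KO ECs, and was also a DEG (adjusted p = 0.0119). Without stated strand use in the counting, reads of such antisense pairs cannot be told apart, and *Efna4* also shares 168 bases with *4731419I09Rik*, at 0 to 6 counts in controls and 12 to 28 in mutants. *Ephb1* (chr9:101922128-102354693, minus strand), a receptor for B-type ephrins, was at 0.171, 0.226 and 0.163 CPM in controls and 14.6, 52.5 and 38.2 CPM in Bmp9/10-HSC-KO ECs (7.55 ± 0.57, adjusted p = 0.000184). It shares 152 bases with the antisense *Gm26846*, at 0 counts in controls and 32, 47 and 68 in mutants. *Epha4* (chr1:77367185-77515088, minus strand), a receptor that binds ephrins of both types, went from 0.976, 1.16 and 0.733 CPM to 32.2, 26.2 and 49.6 CPM (5.23 ± 0.32, adjusted p = 9.71e-05). *Epha2*, the main endothelial receptor of ephrin-A1, was at 13.5, 15.8 and 12.4 CPM and 28.5, 26.1 and 28.8 CPM. Its log2 fold change of 1.00 ± 0.15 (adjusted p = 0.00335) sat on the fold threshold. The arteriovenous pair itself did not pass: *Efnb2*, the arterial ligand, was at 67.2, 134 and 87.3 CPM in controls and 149, 178 and 189 CPM in Bmp9/10-HSC-KO ECs (0.84 ± 0.25, adjusted p = 0.0526), and *Ephb4*, its venous receptor, at 181, 176 and 154 CPM and 151, 108 and 140 CPM (−0.35 ± 0.16, adjusted p = 0.172). Neither pair of groups overlapped. Control replicate 2 was the highest control for *Efnb2*, and without it the log2 fold change was 1.15 (adjusted p = 0.0108).

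Both netrins that were tested and both Unc5 receptors that were tested changed in ECs, in each case 1 up and 1 down. *Ntn4* (chr10:93640681-93747207, plus strand), a laminin-like netrin of basement membranes, fell from 74.9, 131 and 72.3 CPM to 28.8, 12.8 and 8.96 CPM (means 92.7 ± 33.0 and 16.9 ± 10.5 CPM, log2 fold change −2.46 ± 0.46, adjusted p = 0.00873). *Ntn1*, the classical secreted netrin, rose from 9.52, 6.40 and 7.01 CPM to 16.7, 16.3 and 21.3 CPM (1.24 ± 0.21, adjusted p = 0.00562). *Unc5b* (chr10:60762593-60831581, minus strand), the netrin receptor of arterial and sprouting endothelium, rose from 21.6, 23.1 and 20.5 CPM to 51.6, 160 and 136 CPM (2.41 ± 0.38, adjusted p = 0.00457). *Unc5a*, known mostly from neurons, fell from 31.1, 33.1 and 26.1 CPM to 11.99, 6.84 and 10.8 CPM (−1.60 ± 0.23, adjusted p = 0.00293). The ranking of these receptors thus reversed, with *Unc5a* above *Unc5b* in each control library and below it in each Bmp9/10-HSC-KO library by CPM, which is not corrected for length. In the Slit and Robo families, the ligand *Slit3* went from 0.0366, 0.243 and 0 CPM to 3.49, 2.30 and 2.74 CPM (4.98 ± 1.01, adjusted p = 0.0124). Its log2 fold change ran from 4.38 to 7.11 over the fits that left out 1 library. *Robo3*, a divergent Robo receptor, went from 0.964, 1.02 and 0.856 CPM to 3.45, 4.65 and 4.43 CPM (2.14 ± 0.28, adjusted p = 0.00182). The endothelial receptor *Robo4* (chr9:37401897-37415115, plus strand) was at 695, 584 and 690 CPM in controls and 886, 842 and 1071 CPM in Bmp9/10-HSC-KO ECs. Its groups did not overlap, but the difference of 0.51 ± 0.17 did not pass (adjusted p = 0.0753).

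Bmp9/10-HSC-KO replicate 1 was the mutant EC library nearest the control mean for 12 of the 18 called guidance genes, as it was for 67.4% of all EC DEGs. Without it, 23 guidance genes were DEGs, 12 higher and 11 lower, 17 of them among the 18, and the log2 fold change of *Plxnc1* was −7.03. In all 6 fits that left out 1 EC library, 13 of the 18 were called, while *Epha2* lost its call in 4 fits by fold and *Efna4* (4 fits), *Plxnb1* (2 fits) and *Sema4a* (2 fits) by adjusted p, and the other gene not called throughout was *Efna3*. Of 39 other genes of these pathways (co-receptors, effectors and proteases), 12 (30.8%, or 36.4% of those tested) were DEGs in ECs, where 13.7% of all genes tested were. The 9 that rose were the co-receptor *Flrt3* (3.62), the netrin receptor *Neo1* (1.11), the cytoskeletal effectors *Rnd1* (2.84), *Mical1* (1.10), *Crmp1* (4.08), *Dpysl2* (1.26), *Nck2* (3.70) and *Enah* (4.45), and the receptor tyrosine kinase *Met* (2.54), in log2 fold change. *Flrt1* (−5.15), *Mical2* (−2.94) and *Dpysl3* (−1.09) fell. Of the 6 fits that left out 1 EC library, *Neo1* and *Mical1* were called in 1, *Met* in 2 and *Dpysl3* in 5, and the other 8 genes in all.

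The comparison of livers carried the same deletion into whole tissue at 12 weeks. In whole livers, 8 of the 65 genes were DEGs (12.3%, or 15.1% of the 53 tested), 6 higher and 2 lower, where 2.48% of all genes tested were DEGs (1.03% higher and 1.45% lower). Of these 8, 6 (75%) were among the 18 EC DEGs (33.3% of them), each in the same direction, in different mice. Over all genes, 237 of the 425 liver DEGs (55.8%) were among the 2198 EC DEGs (10.8% of them), 224 in the same direction. The median log2 fold change over the 53 guidance genes tested was 0.22, and −0.01 over all genes tested. With DESeq2, 17 guidance genes were called in livers and 821 genes in all, against 8 and 425 with edgeR. Summed endothelial markers were at 495 to 606 CPM in control livers and 389 to 440 CPM in Bmp9/10-HSC-KO livers, stellate and mural markers at 279 to 364 CPM and 474 to 521 CPM, hepatocyte markers at 100420 to 124110 CPM and 133200 to 176290 CPM, and Kupffer cell markers at 248 to 440 CPM and 1.69 to 5.96 CPM, and their part was not tested.

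*Sema7a* was at 0.380, 0.287 and 0.0997 CPM in control livers and 16.7, 12.3 and 7.56 CPM in Bmp9/10-HSC-KO livers (5.56 ± 0.52, adjusted p = 0.00241). *Sema3g* went from 0.362, 0.156 and 0.388 CPM to 7.504, 8.74 and 1.49 CPM (4.27 ± 0.71, adjusted p = 0.0237). For both, the lowest mutant was replicate 3, the library that also stood apart by *Xist*, yet it was still above every control. *Ephb1* went from 0.0724, 0 and 0.111 CPM to 4.09, 4.13 and 2.37 CPM (5.77 ± 0.76, adjusted p = 0.00998). *Epha4* went from 0.407, 0.339 and 0.510 CPM to 3.42, 6.09 and 2.03 CPM (3.19 ± 0.46, adjusted p = 0.0135). These 4 genes were thus at most 0.510 CPM in any control liver. *Plxnc1* fell from 24.99, 38.1 and 37.6 CPM to 2.40, 4.28 and 2.74 CPM (−3.42 ± 0.28, adjusted p = 0.00137). *Ntn4* fell from 15.004, 19.99 and 18.9 CPM to 4.56, 5.01 and 2.80 CPM (−2.12 ± 0.24, adjusted p = 0.00567).

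The other 2 genes called in livers were not called in ECs. *Sema4c*, a class 4 semaphorin that binds plexin B2, rose from 7.17, 5.12 and 6.86 CPM to 12.6, 15.4 and 11.8 CPM (1.05 ± 0.19, adjusted p = 0.0305). *Robo2*, a Slit receptor of mesenchymal and neural cells, rose from 2.14, 2.22 and 2.39 CPM to 4.90, 4.50 and 5.15 CPM (1.11 ± 0.19, adjusted p = 0.0287). Below the fold threshold, *Robo4* was at 20.5, 20.5 and 22.0 CPM in controls and 40.3, 39.3 and 33.7 CPM in mutants (0.85, adjusted p = 0.0117). *Plxna2*, a class A plexin, was at 38.8, 38.0 and 33.2 CPM and 72.3, 73.3 and 54.3 CPM (0.86, adjusted p = 0.0271). None of these 4 genes' groups overlapped. *Unc5b* (1.20, adjusted p = 0.268) and *Efnb2* (1.03, adjusted p = 0.192) did not pass in livers by edgeR. That tool called 0 ephrins and 0 Unc5 receptors there, where DESeq2 called 2 and 1. Of the 39 other pathway genes none was a DEG, with the kinase gene *Fyn* short of the fold threshold (−0.98, adjusted p = 0.0366), while 8 had an unadjusted p below 0.05 in edgeR and 1 was called by DESeq2. Without Bmp9/10-HSC-KO replicate 3, 10 guidance genes were DEGs, 7 of them shared with the 8, and *Sema3g* rose by 4.73 (adjusted p = 0.00245). Without any other liver library, 4 or 5 were, and the genes lost (*Robo2* in all 6 fits) were *Sema3g*, *Epha4*, *Sema4c* and *Robo2*, with adjusted p up to 0.12 and the same direction.

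**Figure D3:**
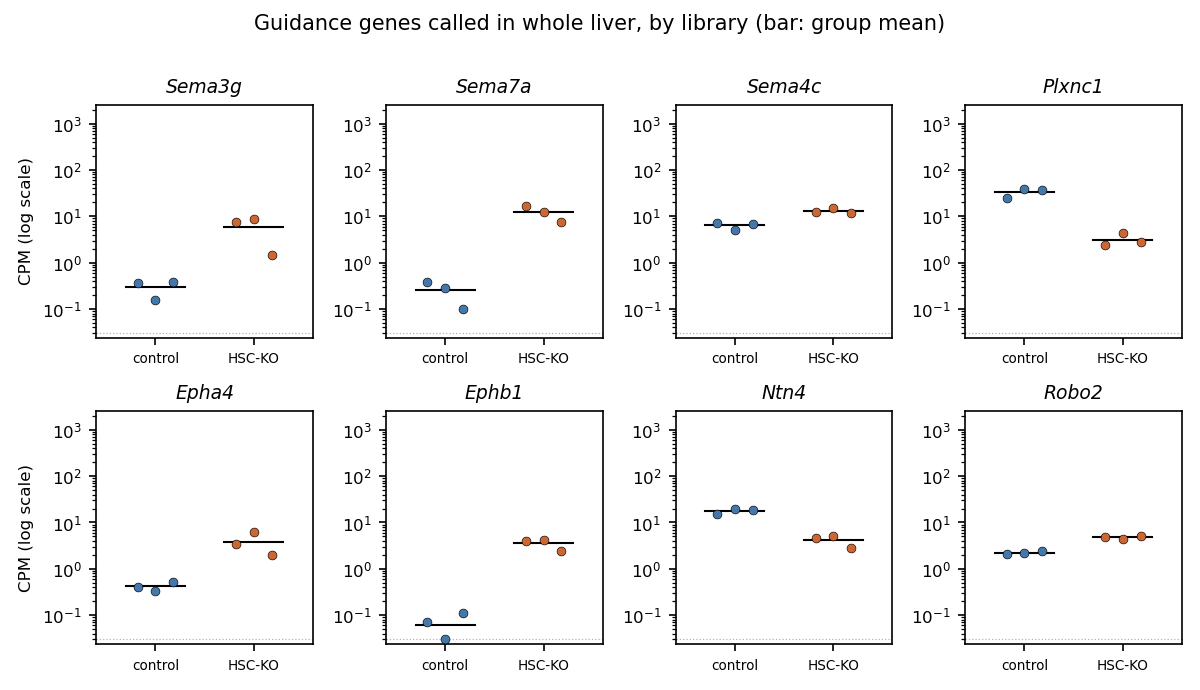
CPM (log scale) of the 8 guidance genes called in whole liver, in 3 control (blue) and 3 Bmp9/10-HSC-KO (orange) libraries, in replicate order from left to right, with bars at the group means and values under 0.03 CPM drawn at 0.03. The groups do not overlap for any of the 8, and the third mutant is the lowest of its group for *Sema3g* at 1.49 CPM.

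In macrophages, the comparisons asked which guidance genes differ when HSCs lack the ligands or when blood cells lack *Smad4*. In macrophages from Bmp9/10-HSC-KO mice, the class 4 semaphorins *Sema4d* and *Sema4a* rose, with *Plxnb1* and *Unc5a* rising from low levels and *Efnb3* falling. These 5 of 65 genes were DEGs (7.69%, or 12.5% of the 40 tested), where 11.7% of all genes tested were (6.32% higher and 5.34% lower), a share near that of the guidance genes. Of 13 genes listed for macrophages, 3 rose and none fell. The median log2 fold change was −0.20 over the 40 guidance genes tested and 0.04 over all genes tested.

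*Sema4d* (chr13:51685529-51793747, minus strand), the ligand of plexin B1 and of CD72 on immune cells, was at 2.97, 2.17 and 0.402 CPM in BMP9/10 control macrophages and 63.1, 89.1 and 57.9 CPM in Bmp9/10-HSC-KO macrophages. The means were 1.85 ± 1.31 and 70.0 ± 16.7 CPM (SD, n = 3), and the log2 fold change was 5.22 ± 0.63 (adjusted p = 0.00137). Because *Sema4d* is also a T cell gene, lymphocyte markers were set beside it: their summed level was 24.5, 16.7 and 13.9 CPM in controls and 109, 47.4 and 143 CPM in mutants, with 5 of 6 and 6 of 6 detected. Markers of monocytes and dendritic cells summed to 9.58 to 18.8 CPM in controls and 51.8 to 117 CPM in mutants, with 5 of 6 and 6 of 6 detected, and the part of either cell class was not tested. *Sema4a* (chr3:88435959-88461182, minus strand), a semaphorin that costimulates T cells, went from 6.40, 4.83 and 6.71 CPM to 32.7, 29.1 and 44.2 CPM (2.57 ± 0.22, adjusted p = 0.000301). *Plxnb1*, the receptor of Sema4D, went from 0.0709, 0.318 and 0.0699 CPM to 2.53, 1.49 and 1.19 CPM (3.47 ± 0.74, adjusted p = 0.0156). *Unc5a* went from 1.24, 1.90 and 0.891 CPM to 5.0025, 4.28 and 3.82 CPM (1.70 ± 0.34, adjusted p = 0.0127). Its exons share 34 bases with the antisense gene *Hk3*, which had 8743 to 11206 counts in controls and 2762 to 3445 in mutants, the opposite direction. *Efnb3*, a B-type ephrin, fell from 1.79, 1.79 and 3.13 CPM to 0.330, 0.0734 and 0 CPM (−4.04 ± 1.13, adjusted p = 0.0431). The groups did not overlap for any of the 5.

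*Sema4d* and *Sema4a* were called in all 6 fits that left out 1 library. *Plxnb1* and *Unc5a* lost their calls without Bmp9/10-HSC-KO replicate 1 (adjusted p = 0.0651 and 0.055), where 3 genes were called. *Efnb3* lost its call in 4 of the 6 fits, with adjusted p up to 0.13. Without Bmp9/10-HSC-KO replicate 3, 8 genes were called.

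Of the plexins and the remaining genes listed for macrophages, several rose by less than the fold threshold. *Plxna4*, which binds class 3 and class 6 semaphorins, was at 29.6, 36.4 and 21.1 CPM in controls and 65.6, 50.5 and 50.7 CPM in Bmp9/10-HSC-KO macrophages (0.94 ± 0.21, adjusted p = 0.0206). *Plxna1*, a receptor of Sema6D in myeloid cells, was at 37.3, 30.7 and 36.7 CPM and 89.8, 43.8 and 69.5 CPM (0.96 ± 0.25, adjusted p = 0.0321). *Sema4b* was at 67.8, 51.4 and 73.8 CPM and 109, 104 and 106 CPM (0.73 ± 0.15, adjusted p = 0.013). All 3 had groups that did not overlap. *Plxna1* passed the fold threshold without mutant replicate 2 (1.19), and *Plxna4* without control replicate 2 (1.13) or mutant replicate 2 (1.00). *Sema6d*, itself the ligand, was at 322, 304 and 117 CPM in controls and 154, 108 and 123 CPM in mutants (−0.94 ± 0.35, adjusted p = 0.106). Control replicate 3 lay among the mutants, and without it *Sema6d* was lower by a called difference (−1.28, adjusted p = 0.00575). *Plxnb2* was at 438, 350 and 322 CPM and 324, 262 and 295 CPM (−0.33, adjusted p = 0.179). *Plxnc1* (1.69, 13.5 and 7.88 CPM to 14.6, 9.02 and 10.9 CPM) and *Plxnd1* (10.1, 11.9 and 9.16 CPM to 11.0, 6.501 and 12.2 CPM) overlapped between groups, and neither passed (adjusted p = 0.56 and 0.886). At the EC share of each library, ECs would supply 0.849, 13.6 and 9.74 CPM of *Plxnc1* in the controls and 0.0154 to 0.0792 CPM in the mutants, and 0.372, 5.98 and 4.27 CPM of *Plxnd1* in the controls and 0.201 to 1.03 CPM in the mutants, and their part was not tested. *Ntn1* and *Unc5b* did not pass (adjusted p = 0.744 and 0.787), and *Sema7a* had at most 19 counts in any of these libraries and was not tested.

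**Figure D4:**
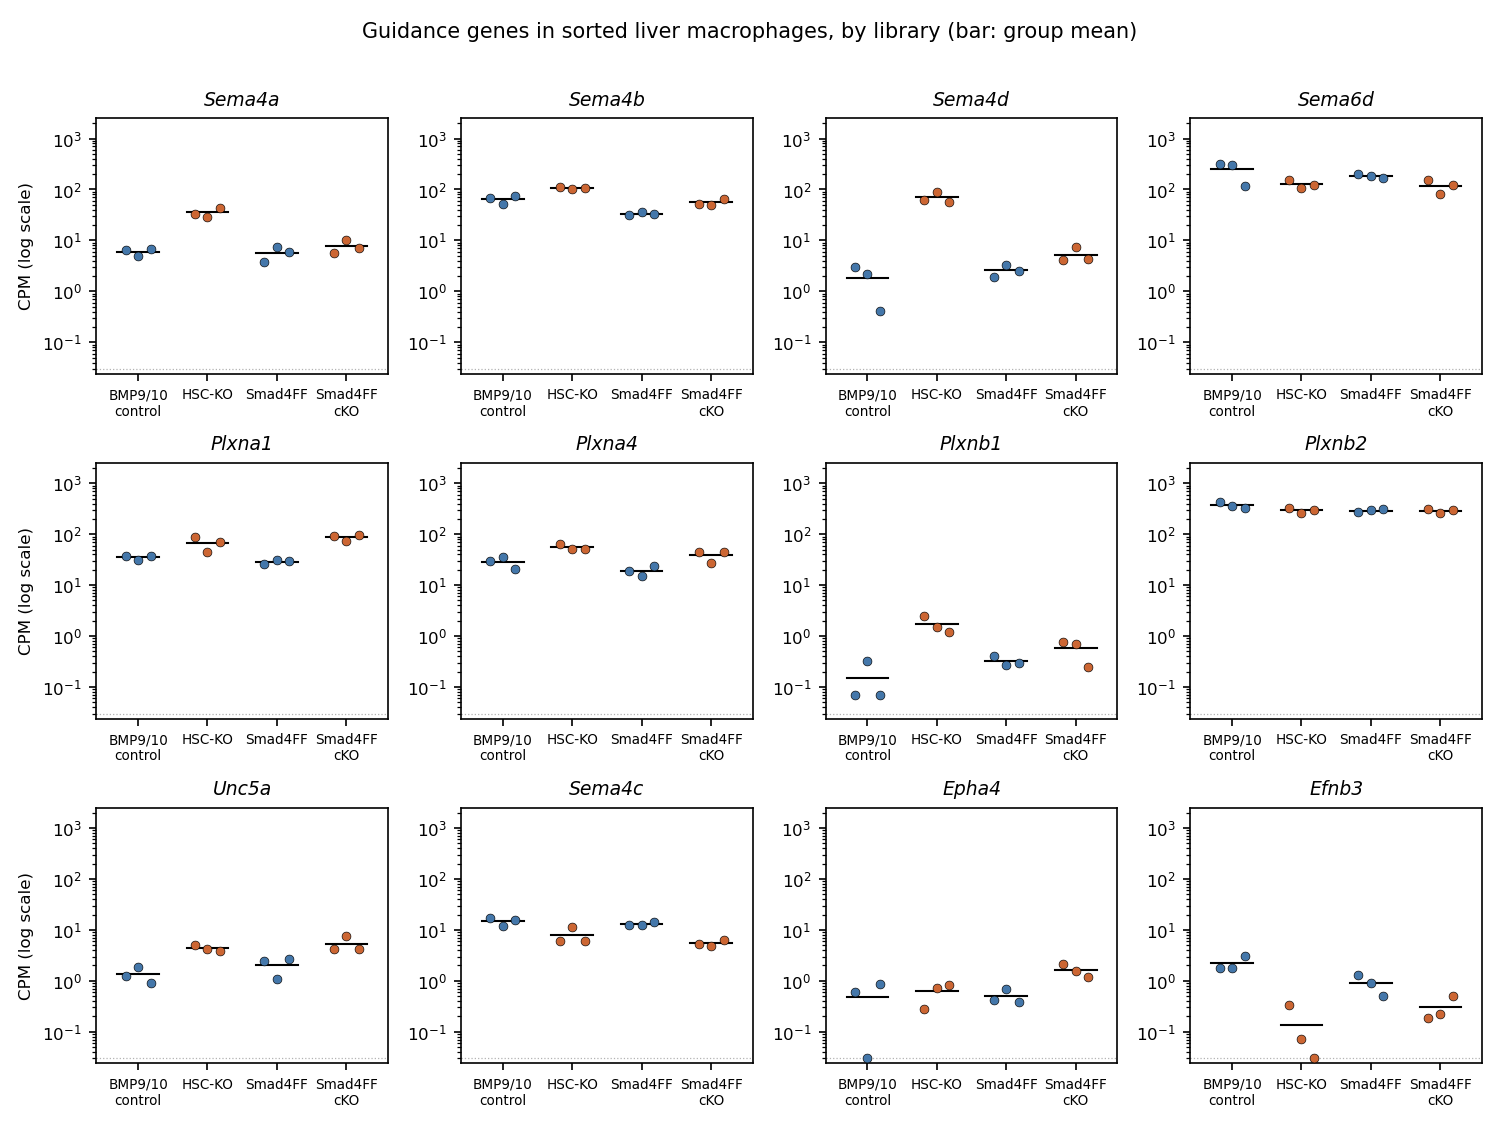
CPM (log scale) of 12 guidance genes in sorted macrophages, with controls (BMP9/10 control and Smad4FF) in blue and mutants (Bmp9/10-HSC-KO and Smad4FF cKO) in orange, 3 libraries a group in replicate order, bars at the group means and values under 0.03 CPM drawn at 0.03. *Sema4b*, *Sema4d*, *Plxna1*, *Plxna4*, *Unc5a*, *Sema4c* and *Efnb3* have groups that do not overlap in both comparisons. *Sema4a* and *Plxnb1* do so only in the HSC-KO comparison, and *Sema6d* and *Epha4* only in the Smad4FF cKO comparison. *Sema4d* is at 57.9 to 89.1 CPM in HSC-KO and 4.17 to 7.36 CPM in Smad4FF cKO macrophages.

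In macrophages from Smad4FF cKO mice, *Plxna1* and *Epha4* rose and *Sema4c* fell. These 3 of 65 genes were DEGs (4.62%, or 7.32% of the 41 tested), where 5.43% of all genes tested were (2.76% higher and 2.67% lower), again a near share. The 6 general macrophage markers summed to 18086 to 21830 CPM in Smad4FF and 9355 to 13012 CPM in Smad4FF cKO libraries, and cholangiocyte markers (4 of 5 detected in both groups) to 4.31 to 5.57 CPM and 10.3 to 22.5 CPM, and their part in the guidance gene results was not tested. The median log2 fold change was 0.21 over the guidance genes tested and 0.04 over all genes tested. *Plxna1* (chr6:89316314-89362620, minus strand) was at 26.1, 30.9 and 30.2 CPM in Smad4FF macrophages and 93.8, 72.1 and 97.3 CPM in Smad4FF cKO macrophages. The means were 29.1 ± 2.60 and 87.7 ± 13.6 CPM (SD, n = 3), and the log2 fold change was 1.59 ± 0.15 (adjusted p = 0.00113). At the EC share of these libraries, taken as a median over markers, ECs would supply 0.67 to 2.38 CPM of *Plxna1*. *Sema4c* fell from 12.2, 12.6 and 14.3 CPM to 5.28, 4.82 and 6.46 CPM (−1.24 ± 0.18, adjusted p = 0.00583), and its exons share 334 bases with the antisense *D430040D24Rik*, at 66 to 107 counts in Smad4FF and 45 to 92 in Smad4FF cKO libraries. ECs would supply 2.99, 0.835 and 2.74 CPM of *Sema4c* in Smad4FF and 2.96, 2.98 and 2.23 CPM in Smad4FF cKO libraries, and their part was not tested. *Epha4* rose from 0.412, 0.686 and 0.388 CPM to 2.14, 1.58 and 1.17 CPM (1.72 ± 0.38, adjusted p = 0.0374), but lost its call in 4 of the 6 fits that left out 1 library, with adjusted p up to 0.154. *Plxna4* was at 18.6, 15.2 and 23.98 CPM and 43.8, 27.1 and 44.9 CPM (1.00, adjusted p = 0.051), and was called without Smad4FF cKO replicate 2 (1.20, adjusted p = 0.0196). *Sema4b* was at 30.9, 36.5 and 33.1 CPM and 52.9, 50.2 and 65.5 CPM (0.75 ± 0.14, adjusted p = 0.0198). The groups did not overlap for any of these 5 genes.

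None of the 5 genes called in Bmp9/10-HSC-KO macrophages was called here by edgeR. By the test of the difference of effects, only *Sema4d* and *Sema4a* differed between the experiments. That difference was 0.39 for *Unc5a* (adjusted p = 0.801) and 2.67 for *Plxnb1* (adjusted p = 0.156). *Sema4d* was at 1.94, 3.32 and 2.51 CPM in Smad4FF and 4.17, 7.36 and 4.29 CPM in Smad4FF cKO macrophages (1.03 ± 0.32, adjusted p = 0.106). *Sema4a* was at 3.80, 7.25 and 5.99 CPM and 5.65, 10.1 and 6.96 CPM (0.42, adjusted p = 0.509), with overlapping groups. *Sema6d* was at 197, 187 and 166 CPM and 152, 80.4 and 123 CPM (−0.63, adjusted p = 0.152). *Plxnb2*, the highest of the family per exonic length, differed by −0.02 (adjusted p = 0.948). *Plxnb1* (0.85, adjusted p = 0.417) and *Unc5a* (1.35, adjusted p = 0.0997) did not pass either. Some endothelial genes of the family were measured here beside an EC share of 2.73 to 9.75%. *Plxnc1* was at 64.2, 13.6 and 57.9 CPM in the 3 Smad4FF libraries, where ECs would supply 79.1, 22.1 and 72.6 CPM, and *Plxnd1* at 35.7, 16.8 and 36.9 CPM, where they would supply 34.6, 9.69 and 31.8 CPM. *Efnb2* was at 3.10, 0.985 and 2.24 CPM, where they would supply 9.38, 2.62 and 8.62 CPM, so the estimate lay above the measured level for some genes and below it for others. Replicate 2, with the lowest EC share, was the lowest for all 3, and the part of ECs was not tested. *Plxnc1* and *Plxnd1* did not pass between Smad4FF and Smad4FF cKO (*Plxnc1* 0.25, adjusted p = 0.823, and *Plxnd1* 0.07, adjusted p = 0.912), and *Unc5b* and *Ntn1* were not DEGs. Leaving Smad4FF replicate 2 out gave the same 3 DEGs. *Sema7a* had at most 4 counts in any of these 6 libraries.

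Whether the effect of losing the ligands in HSCs differs from that of losing *Smad4* in blood cells was tested as the difference of the log2 fold changes. Of the 65 genes, 2 differed, where 2.61% of all genes tested did. These were *Sema4d*, whose effect was larger in Bmp9/10-HSC-KO macrophages by 4.25 ± 0.72 (adjusted p = 0.0108), and *Sema4a*, larger by 2.20 ± 0.40 (adjusted p = 0.0146). Both held in 12 of 12 fits that left out 1 library. By edgeR, no guidance gene was called in both macrophage comparisons, where 599 genes in all were, which is 31.5% of the DEGs of Bmp9/10-HSC-KO and 63% of those of Smad4FF cKO macrophages. By DESeq2, 3 were called in both, each higher in both mutants: *Sema4d* (5.24 and 1.02), *Unc5a* (1.69 and 1.34) and the class A plexin *Plxna3* (2.71 and 1.10). Over all genes DESeq2 called 781 in both, which is 31.4% of its DEGs of Bmp9/10-HSC-KO and 58.9% of those of Smad4FF cKO macrophages. For *Unc5a*, at 2.44, 1.06 and 2.71 CPM in Smad4FF and 4.27, 7.45 and 4.13 CPM in Smad4FF cKO libraries, ECs would supply 2.93, 0.821 and 2.70 CPM and 2.91, 2.92 and 2.19 CPM. The summed Kupffer cell markers were lower in both mutants, at 173 to 437 CPM in Bmp9/10-HSC-KO and 1063 to 1091 CPM in Smad4FF cKO macrophages, and their part was not tested. Monocyte and dendritic markers, which were higher in Bmp9/10-HSC-KO macrophages, summed to 25.1 to 32.8 CPM in Smad4FF and 12.8 to 23.2 CPM in Smad4FF cKO macrophages, and lymphocyte markers to 79.3 to 150 CPM and 65.4 to 266 CPM, each with 6 of 6 detected. The experiments also differ in which cells carry the deletion and in the EC share, at which ECs would supply at most 0.0498 CPM of *Sema4a* in the BMP9/10 control and Bmp9/10-HSC-KO libraries, 0.0807 to 0.288 CPM in the Smad4FF and Smad4FF cKO libraries, and at most 0.0246 CPM of *Sema4d* in any.

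Between macrophages and ECs of Bmp9/10-HSC-KO mice, the log2 fold changes of 17 guidance genes differed (7 larger in macrophages and 10 smaller), where 12.3% of all genes tested did. *Sema4a* was called in both cell types in opposite directions, with a difference of 7.67 (adjusted p = 0.00054) that was 13.35 without Bmp9/10-HSC-KO EC replicate 1, and so was *Unc5a*, with a difference of 3.31 (adjusted p = 0.000355). *Sema4b* differed by 3.50 (adjusted p = 0.000683), lower in ECs and higher by less than the fold threshold in macrophages, and *Plxna4*, with values of −0.86 and 0.94, differed by 1.81 (adjusted p = 0.00536). *Plxnb1* rose in both cell types. The 5 largest negative differences among the called genes were in *Sema7a*, *Sema3g*, *Efna2*, *Slit3* and *Epha4*, each at most 0.856 CPM in all 6 macrophage libraries. *Efna3* (−7.86) and *Ephb1* (−7.54) had 0 counts in all 6, so edgeR could not estimate their differences and did not call them.

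Of the 39 other pathway genes, 11 (28.2%, or 35.5% of those tested) were DEGs in Bmp9/10-HSC-KO macrophages, where 11.7% of all genes tested were. The semaphorin co-receptors *Nrp1* and *Nrp2* rose, *Nrp1* from 157, 183 and 167 CPM to 390, 431 and 367 CPM (1.23) and *Nrp2* by 2.02, with the effectors *Mical1* (1.47) and *Dpysl2* (1.32) and the kinase *Met* (2.56). *Rnd1* (−2.17), *Rras* (−1.64) and *Dpysl3* (−3.18), which act downstream of plexins, fell, as did the adaptor *Nck1* (−1.27), the protease *Adam10* (−1.37) and *Ngef*, with 11, 11 and 8 counts in controls and 0 in mutants. *Dpysl3* was at 0.296, 1.78 and 2.10 CPM in the controls, where ECs would supply 0.0952, 1.53 and 1.09 CPM, and *Nrp2* at 1.86, 5.69 and 5.24 CPM, where they would supply 0.408, 6.55 and 4.68 CPM, and their part was not tested. Of the 6 fits that left out 1 library, *Ngef* was called in 0, *Dpysl3* in 1, *Met* in 3 and *Nrp2* in 5, and the other 7 genes in all. In Smad4FF cKO macrophages 4 (10.3%, or 12.5% of those tested) were DEGs, where 5.43% of all genes tested were: *Mical1* (1.64) and *Dpysl2* (1.15) rose, and *Rnd1* (−2.66) and *Adam10* (−1.13) fell, the same directions as in Bmp9/10-HSC-KO macrophages.

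Levels were compared between genes per kilobase (kb) of exon. In control ECs the highest were *Robo4* at 124, *Efna1* at 110 and *Plxnc1* at 97.1 CPM per kb. In control livers *Sema4g* (47.6 CPM per kb), *Plxnb2* (36.5) and *Sema4a* (22.4) led, and none of these was called there, with *Sema4g* at 332, 491 and 413 CPM in controls and 494, 533 and 450 CPM in mutants (0.26, adjusted p = 0.63). In BMP9/10 control macrophages *Plxnb2* (47.9 CPM per kb), *Sema6d* (23.4) and *Sema4b* (11.4) led, and in Smad4FF macrophages *Plxnb2* (37.7), *Efna1* (21.1) and *Sema6d* (17.4). *Efna1* was at 38.3, 23.2 and 54.2 CPM in the Smad4FF libraries, of which ECs would supply 19.7, 5.50 and 18.1 CPM, and its difference in Smad4FF cKO macrophages did not pass (0.17, adjusted p = 0.805).

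**Figure D5:**
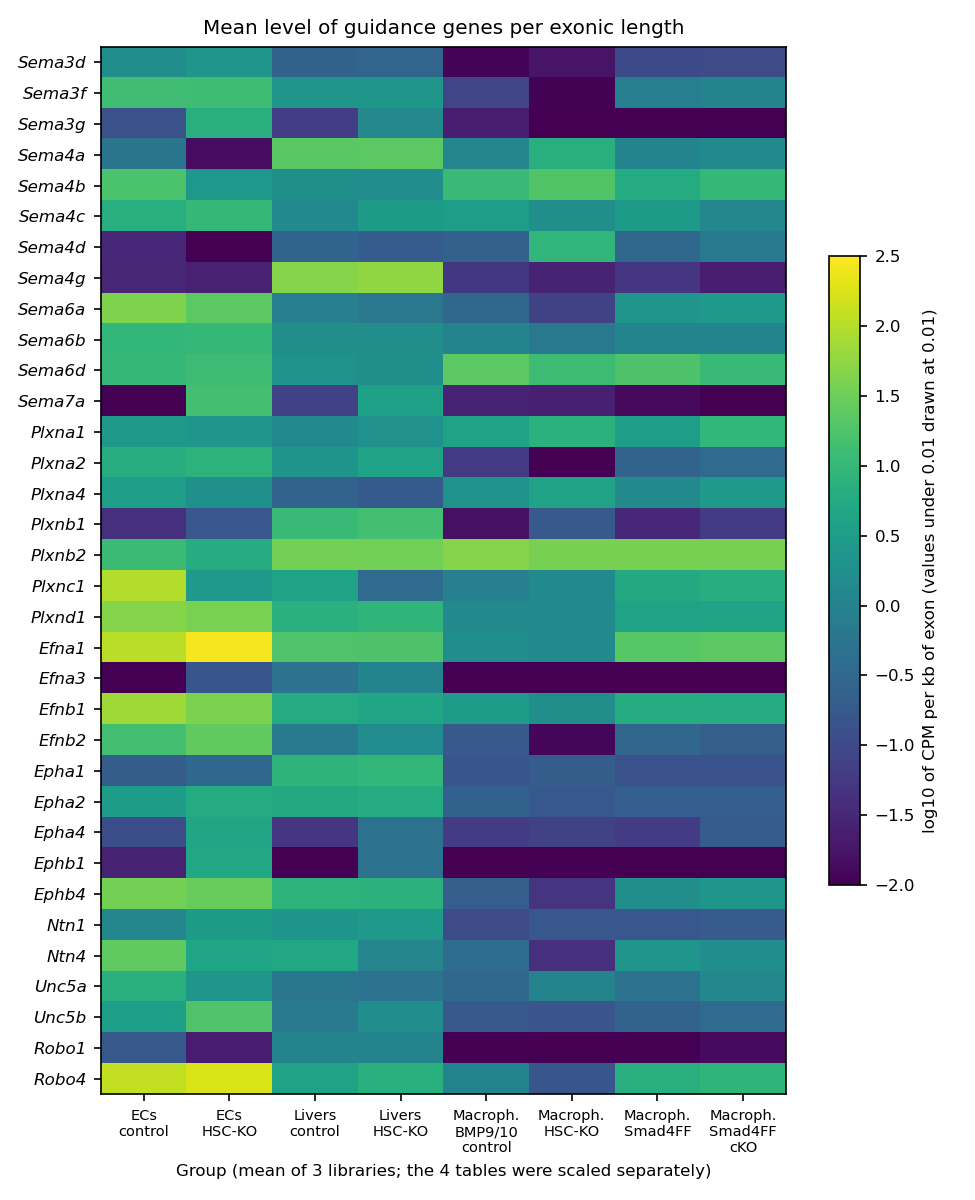
Mean level of the 34 guidance genes with at least 1 CPM per kb of exon in at least 1 of the 8 groups (columns), on a log10 scale, with the 4 tables scaled separately. *Robo4* and *Efna1* are brightest in control ECs at 124 and 110 CPM per kb, *Sema4g* in livers and *Plxnb2* in macrophages.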

How the data were processed

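Total RNA of 24 libraries was sequenced. The authors aligned reads with HISAT2 to mm10 (GRCm38) and deposited raw featureCounts counts per gene in 4 tables, with FastQC and DESeq2 also named in the submitters' processing notes. Versions, annotation release and strand setting are not given in the sources used here, and the kit is named differently in the labels and the paper.

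Each table was filtered (filterByExpr, minimum count 10, minimum total 15), TMM-scaled and tested with edgeR 4.0.16's quasi-likelihood test (R 4.3.3, limma 3.58.1), with no covariates, in 3 against 3 libraries, and the differences of effects in joint fits of 12 libraries. P-values are two-sided and BH-adjusted over all genes tested in a table. Within a table they measure the spread between libraries labelled as separate mice. In the joint fit of macrophages and ECs, 3 mice gave a library of each cell type, and the main fit took these as independent. The DEG thresholds were 0.05 for the adjusted p and 1 for the size of the log2 fold change, and not detectable means at most 3 counts. All columns were mapped to samples by their names, and no replicate pair agreed within sampling noise (chi-square per degree of freedom 92.3 to 495). Scripts were tested on simulated data with planted log2 fold changes. Those of size 2 were called in 64.6% (Bmp9/10-HSC-KO macrophages), 70.6% (Smad4FF cKO macrophages), 69.1% (ECs) and 75.2% (livers) of genes. For the differences of effects they were called in 53% (macrophage experiments) and 41.9% (macrophages and ECs). A gene that did not pass may thus still differ.

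The members, gene lists and marker lists were chosen with earlier results of these data known. Named genes were DEGs with a mean of at least 1 CPM in a group, members of the arterial and venous list in ECs and of the macrophage list in macrophages, and the 3 highest per exonic length in the controls. *Efna3*, genes that passed by adjusted p alone, and the pairs set beside them were named after their values were seen. The share of EC transcripts is the median over 12 markers of the level in a macrophage library over the mean in ECs (Bmp9/10-HSC-KO ECs for Bmp9/10-HSC-KO macrophages, control ECs otherwise), single markers giving up to 26.9%, and the EC-supplied level is that share times the EC level.

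Gene coordinates and exon lengths are from GENCODE vM21 (GRCm38), which may not be the authors' release, and promoters from RefSeq (GRCm38.p6), matched by symbol for 56 of 65 genes. Alternatives were DESeq2 1.42.0, its size factors in edgeR, a filter of at least 1 count, a test against the fold threshold (glmTreat), a replicate block, *Xist* as a covariate and leaving out each library.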

Additional observations from a re-analysis of the deposited data

Results flagged for a closer look

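Between the effects in Bmp9/10-HSC-KO and Smad4FF cKO macrophages, 2 guidance genes differed by the test of the difference, *Sema4a* by 2.20 and *Sema4d* by 4.25 on the log2 scale.

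Between the effects in macrophages and ECs of Bmp9/10-HSC-KO mice, 17 differed. Larger in macrophages were *Epha7* (9.04), *Sema4a* (7.67), *Sema4d* (7.31), *Plxnc1* (5.79), *Sema4b* (3.50), *Unc5a* (3.31) and *Plxna4* (1.81). Smaller in macrophages were *Sema7a* (−10.72), *Sema3g* (−8.52), *Efna2* (−7.17), *Slit3* (−5.76), *Epha4* (−4.84), *Efnb2* (−4.76), *Efnb3* (−4.29), *Unc5b* (−2.64), *Epha2* (−1.54) and *Sema4c* (−1.45). Several differences moved widely in the 12 fits that left out 1 library. Without Bmp9/10-HSC-KO EC replicate 1 the difference was 13.35 for *Sema4a* and 12.47 for *Sema4d*. It was −15.08 for *Sema7a* without control EC replicate 3 and −7.91 for *Slit3* without control EC replicate 2. It was −11.99 for *Sema3g* without Bmp9/10-HSC-KO macrophage replicate 1 and −6.95 for *Efnb2* without replicate 3 of that group. Of these 12 fits, *Slit3* lost its call in 11, *Efnb3* in 10, *Sema4c* in 9, *Epha7* in 5, and *Epha4*, *Sema3g* and *Sema7a* in 1 each. Several rest on few counts. *Epha7* had 0 counts in BMP9/10 control macrophages, 8, 15 and 36 in Bmp9/10-HSC-KO macrophages and at most 44 in any EC library, and *Efna2* had 0 counts in control ECs and at most 17 in Bmp9/10-HSC-KO ECs. *Sema3g* had 26 counts in BMP9/10 control macrophage replicate 2, at most 4 in the other 5 macrophage libraries, and without that library the difference was −2.28 (adjusted p = 0.972). *Sema7a* had at most 19 counts in any of the 6 macrophage libraries. *Efnb2* was at 0.497, 2.37 and 0.839 CPM in BMP9/10 control macrophages and at most 0.208 CPM in Bmp9/10-HSC-KO macrophages, where the EC share would supply 0.101, 1.62 and 1.16 CPM and 0.12 to 0.621 CPM, and its part was not tested.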

How the results depend on the processing

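Each named gene called in a comparison or a difference kept its direction in all settings run, while 606 of 731 recomputed values kept the call and 125 lost it. Of the values for named genes not called, 10 of 324 gained a call and 15, in 9 genes or comparisons, changed sign, among them *Ntn1* in Bmp9/10-HSC-KO macrophages (−0.38 without mutant replicate 3) and *Plxnc1* in Smad4FF cKO macrophages (−0.19 without Smad4FF replicate 2). DESeq2 called 9 guidance genes in Bmp9/10-HSC-KO macrophages, 6 in Smad4FF cKO macrophages, 18 in ECs and 17 in livers, and 4 for the difference between the macrophage experiments. Over all genes it called 2490, 1327, 2706 and 821 in the 4 comparisons, against 1904, 951, 2198 and 425 by edgeR. Testing against the fold threshold with glmTreat called 2, 1, 11 and 5, with 1 for the difference between macrophage experiments and 10 for that between macrophages and ECs. Leaving out each library in turn gave 3 to 8 DEGs in Bmp9/10-HSC-KO macrophages, 2 to 4 in Smad4FF cKO macrophages, 14 to 23 in ECs and 4 to 10 in livers, and 2 to 3 and 13 to 16 for the differences. With *Xist* as a covariate, 6, 19 and 9 were called in Bmp9/10-HSC-KO macrophages, ECs and livers.

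Same-numbered samples did not deviate together (correlations −0.107 to 0.162 in Bmp9/10-HSC-KO macrophages, −0.0986 to 0.0989 in Smad4FF cKO macrophages, 0.0334 to 0.117 in ECs and 0.0133 to 0.0489 in livers), so the numbers were not taken as pairs. With the replicate block 4, 2, 17 and 4 guidance genes were called in these comparisons, and 2 and 12 for the differences, a fit with fewer residual degrees of freedom. With the mouse as a random block (voom), 16 differed between macrophages and ECs. With 3 libraries a group, 3 counts correspond to up to 0.0524 CPM, below which levels cannot be told from 0.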
